A study of Homo sapiens with 2 samples.

Results

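The chemokines described here are 10 secreted or shed attractants of leukocytes, CCL3, CCL4, CCL5, CCL18, CXCL5, CXCL8, CXCL10, CXCL13, CXCL16 and PPBP, in RNA of human multiple myeloma cells. They were taken as every probe set that the array's annotation gives to exactly 1 gene symbol, where that symbol is on the list. This gave 15 probe sets of 9 chemokine genes, out of 41091 probe sets of 19775 genes with 1 symbol. CCL3 had 0 such probe sets. MM.1S is an established multiple myeloma line, so both samples derive from 1 tumour line, and it was either cultured with plasmacytoid dendritic cells (pDCs, dendritic cells known for making type I interferon) or cultured alone. Each of the 2 groups has 1 HG-U133 Plus 2.0 array (Affymetrix) of total RNA, made to ask what pDCs change in myeloma cells, a setting that the series title ties to growth and drug resistance. The sources used here do not give the ratio of pDCs to MM.1S cells, the culture time, any treatment, or whether pDCs were removed before extraction.

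Chemokines are small proteins that bind G protein-coupled receptors on leukocytes and set up gradients along which these cells move. The CC chemokines on the list draw mainly monocytes, T cells and immature dendritic cells. Among the CXC chemokines, those with a glutamate-leucine-arginine motif (CXCL5, CXCL8, PPBP) draw neutrophils through CXCR2, while CXCL10, CXCL13 and CXCL16 act on lymphocytes. In myeloma, CCL3 and CCL4 from tumour cells are known for promoting osteoclasts and bone loss. NF-kB and interferon-regulated factors are textbook activators of many chemokine genes.

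Upstream sequences of 4 members are shown because of the differences at these genes or the textbook motifs they hold. CXCL5 and PPBP are adjacent genes on chromosome 4 that each had a probe set falling from well over the floor to below it. CXCL8 lies in the same cluster and stayed near or below the floor of signals used here. CXCL10 is the classical interferon-induced member. Each is the 250 bases before the gene's start from RefSeq, assembly GRCh38.p14, 5′ to 3′ on the gene's strand. Positions are chr4:73998678-73998927 on the minus strand for CXCL5, chr4:73988191-73988440 on the minus strand for PPBP, chr4:73740319-73740568 on the plus strand for CXCL8 and chr4:76023498-76023747 on the minus strand for CXCL10. Capitals mark matches, on either strand, to a loose NF-kB pattern (GGG, 5 bases of any kind, CC), to a strict one (GGAATTTCC), or to an interferon-response pattern (GAAA, 2 bases of any kind, GAAA).
CXCL5: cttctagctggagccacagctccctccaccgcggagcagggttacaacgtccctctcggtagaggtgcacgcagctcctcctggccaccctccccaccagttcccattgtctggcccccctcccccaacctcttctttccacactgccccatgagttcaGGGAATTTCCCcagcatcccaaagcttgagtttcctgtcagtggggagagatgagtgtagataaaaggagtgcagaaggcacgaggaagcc
PPBP: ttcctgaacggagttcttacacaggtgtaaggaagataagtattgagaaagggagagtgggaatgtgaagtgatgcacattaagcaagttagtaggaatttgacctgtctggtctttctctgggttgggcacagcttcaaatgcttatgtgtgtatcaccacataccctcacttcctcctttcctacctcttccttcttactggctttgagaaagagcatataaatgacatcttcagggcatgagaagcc
CXCL8: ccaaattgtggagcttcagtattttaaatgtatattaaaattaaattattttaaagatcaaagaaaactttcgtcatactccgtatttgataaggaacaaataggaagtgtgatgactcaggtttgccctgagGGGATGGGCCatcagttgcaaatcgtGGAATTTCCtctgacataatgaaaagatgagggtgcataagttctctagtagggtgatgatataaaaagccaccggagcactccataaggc
CXCL10: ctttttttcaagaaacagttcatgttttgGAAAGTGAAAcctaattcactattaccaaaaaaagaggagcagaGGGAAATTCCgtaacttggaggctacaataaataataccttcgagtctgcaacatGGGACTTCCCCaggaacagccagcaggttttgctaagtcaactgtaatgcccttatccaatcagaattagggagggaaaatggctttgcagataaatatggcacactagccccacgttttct
The strict pattern GGAATTTCC was found in the windows of CXCL5, CXCL8 and CXCL10, and it overlaps the loose one in CXCL5 and CXCL10. It lies at bases -90 to -82 in CXCL5 and -91 to -83 in CXCL8, where -1 is the base just before the start, and at -176 to -168 on the opposite strand in CXCL10. The interferon-response pattern was found in CXCL10 alone among the members with a window, at bases -221 to -212. PPBP held none of the 3 patterns in its 250 bases. Of 35116 windows of this length, 0.413% held the strict NF-kB pattern, 3.02% the interferon-response pattern and 54.4% the loose NF-kB pattern. The table had 10 windows of 7 members, several starts included, of which 3 held GGAATTTCC. CCL4, CCL5 and CXCL16 were not in it. These matches are letters in a window and not measured sites.

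All values below are MAS5 signals, a linear brightness per probe set that cannot be compared between probe sets. The median signal of each array, 115.9 with pDCs and 124.0 alone, served as a floor, and lower signals were set to it before a log2 ratio (with pDCs minus alone) was taken. A probe set below the floor on 1 array has a bound only, written "at least", and one below it on both has no ratio. With 1 array per group there is no replicate spread, so no test was possible, the number of arrays limits the precision, and "higher" and "lower" describe these arrays. Both arrays had a trimmed mean signal of 500.1, and the median log2 ratio over probe sets passing both floors was -0.01. The ratio of 3′ to 5′ signal differed between the arrays, at 8.09 with pDCs and 19.5 alone for ACTB and 2.46 and 3.07 for GAPDH. Its part in any result below was not tested.

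The chemokine RNAs split into opposite directions. CCL4 and CCL5 were at least 2-fold higher with pDCs, and CCL18, CXCL5, CXCL13 and PPBP were at least 2-fold lower, while CXCL8, CXCL10 and CXCL16 did not pass 2-fold. Of the 15 probe sets, 6 were above the floor on both arrays, 4 only in MM.1S alone, 2 only with pDCs and 3 on neither. Of all 41091 named probe sets, 25795 passed the floor on at least 1 array. How many of them passed it on 1 array only was not counted, so this split describes the members only. Of the 12 with a ratio, 4 were at least 2-fold higher, against 4.19% of all 25795 named probe sets above the floor on at least 1 array. A further 5 of the 12 were at least 2-fold lower, against 4.67%. Of those lower, PPBP, CXCL13, CXCL5 on 214974_x_at and CCL18 on 32128_at passed the floor only alone, which fixes the sign of their ratios. The same holds for CCL5 on 1555759_a_at among those higher, which passed it only with pDCs. Among the 12612 probe sets whose higher signal lay between 250 and 2000, as for every chemokine past 2-fold, 7.71% were higher and 7.68% lower by this measure. The median log2 ratio of the 12 was -0.39, against -0.02 for all named probe sets, and the median absolute ratio was 1.44 against 0.36. Probe sets of 1 gene share their RNA and are not independent, and the members were listed with earlier results of these arrays known.

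**Figure D1:**
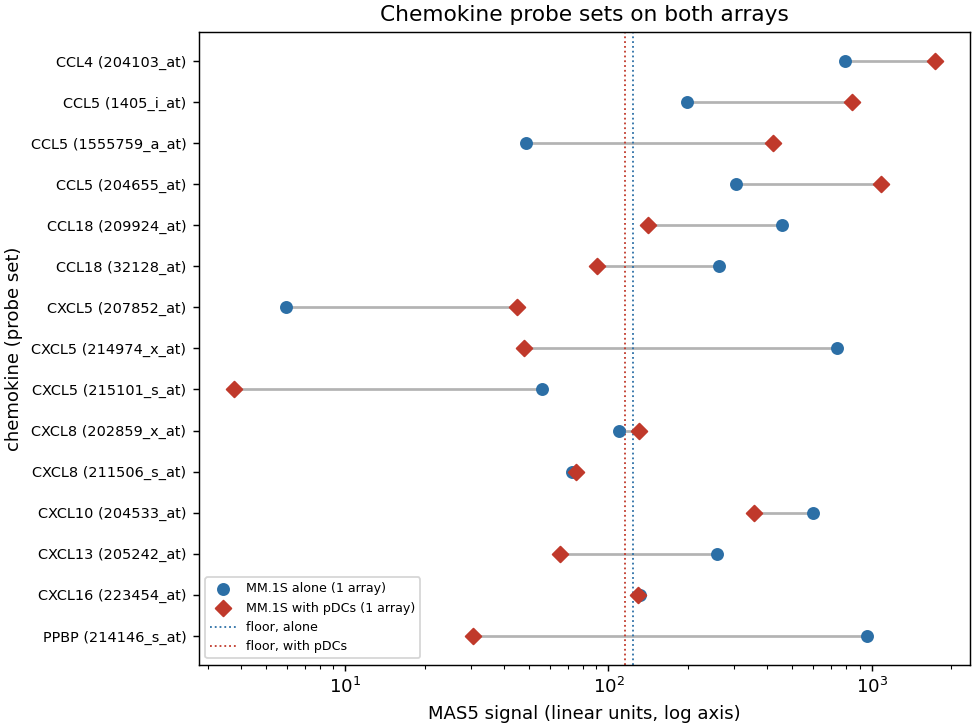
MAS5 signal (linear units, log axis) of each of the 15 chemokine probe sets on the array of MM.1S with pDCs (red diamonds) and of MM.1S alone (blue circles), 1 array each, with the floor of each array dotted. CCL4 and CCL5 lie to the right with pDCs, and PPBP and 1 CXCL5 probe set fall from 957 and 735 to below the floor. CXCL16 lies just over the floor on both arrays, and the CXCL8 probe sets lie near or below it.

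By RNA, 8 of the 9 genes had a probe set above the floor in MM.1S alone and 6 had one with pDCs. The same shares over all genes were not counted, so the gap between 8 and 6 is not a result about chemokines. The exception alone was CXCL8, and CXCL5, CXCL13 and PPBP were below the floor with pDCs. The arrays measure RNA of the whole sample, so whether a transcript came from MM.1S cells or from pDCs, and whether fewer cells of a type or less RNA per cell lies behind a lower signal, cannot be told apart.

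CCL5 (RANTES), which draws T cells and monocytes, was higher with pDCs on every one of its 3 probe sets. Probe set 204655_at had a signal of 1083 with pDCs and 305 alone, a 3.55-fold difference. Probe set 1405_i_at had 842 and 198, which is 4.25-fold. Probe set 1555759_a_at had 423 with pDCs and 48.6 alone, where it was below the floor, and was at least 3.41-fold higher. CCL5 was thus above the floor on both arrays by the first 2 probe sets and was high only with pDCs by the third. The 2 measured log2 ratios, 1.83 and 2.09, differed by 0.26, against a median difference of 0.42 over the 2947 genes with 2 probe sets measured on both arrays. Each exceeded the ratio of at least 99.7% of all named probe sets above the floor.

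CCL5 is also a product of T and NK cells, and of their markers 9 of 10 had a probe set. Above the floor were 3 with pDCs and 3 alone, and the summed marker signal was 754 and 698. This sum and the marker sums below add signals before the floor was applied. They are led by the brightest probe sets and do not measure cell content. CD2, CD3D, CD3E, CD8A, GNLY and NKG7 were below the floor on both arrays. PRF1, the perforin gene, was the exception past 2-fold, with 299.8 against 124.4 (log2 ratio 1.27), but its signal alone lay at the floor of 124.0.

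CCL4 (MIP-1 beta), a chemokine made by activated lymphoid and myeloid cells and by myeloma cells, was higher with pDCs. Its only probe set, 204103_at, had a signal of 1733 with pDCs and 792 alone, a 2.19-fold difference. Both signals were well over the floor, and the log2 ratio of 1.13 was larger than that of 97.2% of named probe sets. Copies of CCL4 in the genome are near-identical to it in sequence, so the signal may include them.

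CCL3 (MIP-1 alpha), the osteoclast-activating chemokine of myeloma and a neighbour of CCL4 on chromosome 17, could not be followed on its own. Probe set 205114_s_at is annotated to 3 genes, CCL3, CCL3L1 and CCL3L3, and is counted under none of them here. Its signal was 36505 with pDCs and 10976 alone, 3.33-fold higher. It shows the same direction as CCL4 and CCL5, and how much of it is CCL3 cannot be told apart from the copies.

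CCL18 (PARC), a CC chemokine of dendritic cells and alternatively activated macrophages that draws naive T cells, was lower with pDCs on both of its probe sets. Probe set 209924_at had 141 with pDCs and 457 alone and was 3.25-fold lower. Probe set 32128_at had 90.7, below the floor, and 263 and was at least 2.26-fold lower. On both probe sets the MM.1S-alone array was the higher one, and the co-culture signal lay near the floor.

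PPBP (CXCL7), the precursor of the platelet chemokines beta-thromboglobulin and NAP-2, was above the floor in MM.1S alone and below it with pDCs. Its signal on 214146_s_at was 30.6 with pDCs, far below the floor, and 957 alone, so it was at least 8.26-fold lower. Its ratio rests on 1 probe set of the s_at class, which can bind transcripts of more than 1 gene. CXCL5 (ENA-78), which draws neutrophils through CXCR2, had 47.6 with pDCs and 735 alone on 214974_x_at and was at least 6.34-fold lower. The other CXCL5 probe sets gave 45.0 against 5.93 on 207852_at and 3.78 against 56.0 on 215101_s_at. Neither probe set passed the floor on any array, so the drop in CXCL5 was seen on 1 of its 3 probe sets, one of the x_at class that can bind related transcripts.

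CXCL8 (interleukin 8), the best known neutrophil attractant, could not show such a drop, since neither of its probe sets passed the floor alone. Probe set 202859_x_at had 130 with pDCs and 109 alone, where it was below the floor, for a ratio of at least 1.05-fold, and 211506_s_at had 75.4 and 72.4, below the floor on both. PPBP and CXCL5 are adjacent on chromosome 4, in a run of 9 protein-coding chemokine genes from CXCL8 to CXCL2. Of the run's 6 genes that are not on the list, CXCL6, PF4V1, CXCL1 and PF4 were below the floor on both arrays by the probe set of highest mean signal. CXCL3 had 205 against 160.4, and CXCL2 had 135.5 against 90.4, just over the floor with pDCs. Another CXCL2 probe set, 209774_x_at, had 14.5 with pDCs and 173 alone and was at least 1.49-fold lower, the same direction as PPBP and CXCL5, so the probe sets of CXCL2 disagree. By these probe sets, 2-fold was passed in the run by PPBP and by 1 probe set of CXCL5. Probe sets of the run that were below the floor alone could not show a drop by this measure.

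Platelet and monocyte genes were read beside PPBP, CXCL5 and CCL18, since these chemokines are also their products. Of 11 platelet and megakaryocyte markers, 10 had a probe set, 5 were above the floor with pDCs and 4 alone, and their summed signal was 1166 with pDCs and 1370 alone. PF4, GP9, GNG11 and TREML1 passed the floor on neither array. Lower with pDCs, like PPBP, but not past 2-fold, were ITGA2B with 208 against 374, ITGB3 with 173 against 337, GP1BA with 174 against 258 and GP6 with 44.4 against 141. SELP, with 183 against 63.2, and TUBB1, with 205 against 19.7, were higher with pDCs and below the floor alone. All 10 monocyte and macrophage markers had a probe set, with 3 above the floor with pDCs, 5 alone and a summed signal of 668 and 1657. LYZ, the lysozyme gene, had 17.0 with pDCs and 711 alone, the same direction as these chemokines. It made up most of the gap between the monocyte sums. CD163, FCGR1A and MS4A7 were below the floor on both arrays. CD14 had 26.9 and 139, the latter near the floor, and VCAN, S100A8 and S100A9 were also lower with pDCs but not past 2-fold. FCN1, with 122.6 and 62.6, and CSF1R, with 120.9 and 123.1, passed the floor only with pDCs. The part of such cells in the chemokine values was not tested.

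CXCL13 (BLC), the B cell attractant of lymphoid follicles that binds CXCR5, was lower with pDCs. Its probe set 205242_at had 65.7, below the floor, with pDCs and 259 alone, at least 2.24-fold lower. CXCL10 (IP-10), an interferon-induced ligand of CXCR3, had 356 with pDCs and 599 alone on 204533_at. It was above the floor on both arrays and 1.68-fold lower, which does not pass 2-fold. CXCL16, a membrane-bound chemokine and scavenger receptor that binds CXCR6, had 129 with pDCs and 132 alone on 223454_at. Both signals lay just over the floor, and no difference was detectable there.

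**Figure D2:**
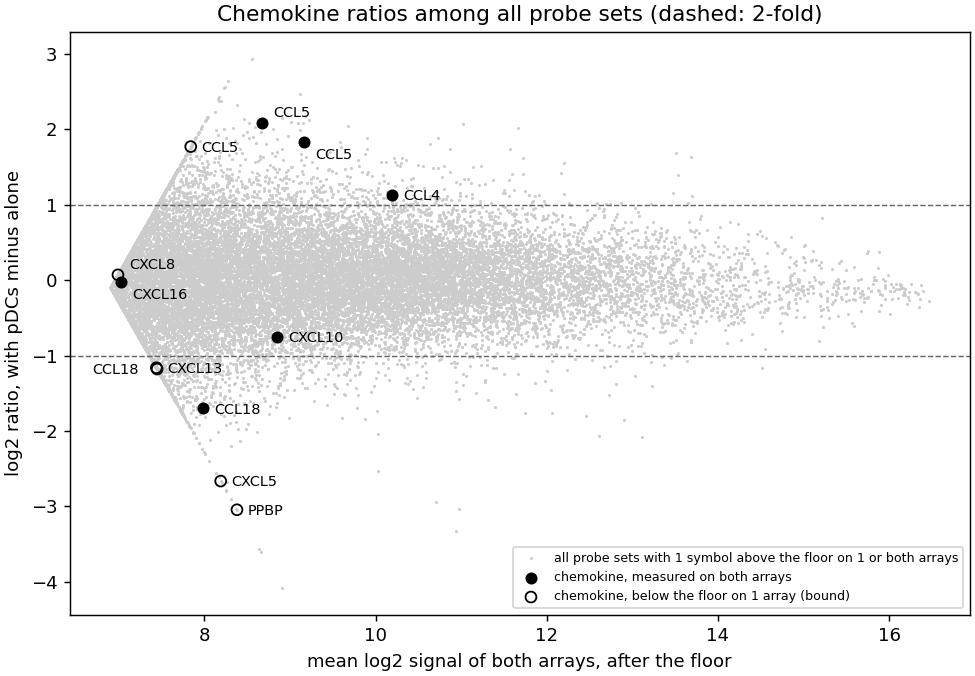
Log2 ratio (with pDCs minus alone) against the mean log2 signal of both arrays after the floor, for every probe set with 1 symbol above the floor on 1 or both arrays (grey) and for the 12 chemokine probe sets with a ratio (black, filled where measured on both arrays and open where the ratio is a bound). The 3 CCL5 probe sets lie near the upper edge of the cloud, between 1.77 and 2.09, and PPBP and CXCL5 near its lower edge at -3.05 and -2.66.

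Markers of pDCs were read beside CCL4 and CCL5, which were higher with pDCs, and their part in these values was not tested. Of 13 markers, 8 were above the floor with pDCs and 8 alone, and their summed signal was 26092 with pDCs and 17006 alone. Most of that sum was LAMP5, with 19601 against 9053, and TCF4, with 3569 against 4400, and both had signals well over the floor already in the MM.1S-alone array. CLEC4C, IL3RA, SPIB and TCL1A were below the floor on both arrays. LAMP5 was past 2-fold higher with pDCs (log2 ratio 1.11), the same direction as CCL4 and CCL5. GZMB was past 2-fold lower, with 174 against 604 (log2 ratio -1.79), the opposite direction. Smaller differences were seen for LILRA4 with 306 and 256, IRF8 with 396 and 330, and DNASE1L3 with 232 and 110, on the higher side. On the lower side were IRF7, with 1073 and 1303, PTCRA, with 510 and 711, and NRP1, with 35.0 and 146. The labelled cell type was visible on both arrays, as all 7 plasma cell markers were above the floor with pDCs and alone.

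Most of the rest of the chemokine family lay below the floor. Of 34 other chemokines, 30 had a probe set and 21 of these were below the floor on both arrays by the probe set of highest mean signal. Of the 9 with a ratio, 0 were at least 2-fold higher and 0 at least 2-fold lower, against 3.16% and 4.51% of all 14408 genes above the floor on at least 1 array. No signal of the 9 was above 237, so the floor left little room for a 2-fold ratio, and these counts of 0 are largely set by it. The median log2 ratio was -0.50, against -0.04 for all those genes, with 4 positive and 5 negative, but 4 of the 9 passed the floor only alone and 2 only with pDCs, which fixes their sign. Of the pair with the highest mean log2 signal among the 9, a rule for naming and not a comparison of levels, CXCL12, the marrow homing factor that binds CXCR4, had 163 with pDCs and 237 alone, and CXCL3, a neutrophil attractant, had 205 and 160.4. CCL2, the monocyte attractant, had the lowest ratio, with 83.1 against 215, and is named after its values were seen. Without a floor, where all 30 have a ratio, 6 were at least 2-fold higher and 8 lower.

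No receptor for the listed chemokines passed 2-fold on its probe set of highest mean signal. Of 12 receptors, 10 had a probe set and 5 were above the floor on at least 1 array, with 0 at least 2-fold higher and 0 lower, against 3.16% and 4.51% of all genes. Of the 5, 3 passed the floor only with pDCs, which fixes the sign of their ratios, and CCR1 and CXCR3 were measured on both arrays. CCR1, a receptor for CCL3 and CCL5 found on myeloma cells and osteoclast precursors, had 11144 with pDCs and 7720 alone (1.44-fold). Its other probe set, 205099_s_at, had 1754 and 668, 2.62-fold higher. CXCR3, the receptor of CXCL10, had 633 and 522 (1.21-fold) and, on 217119_s_at, 322 and 125, 2.57-fold higher. ACKR2, ACKR4 and CXCR6 have bounds only, with signals of at most 216 with pDCs, too low to reach 2-fold over the floor. Another ACKR2 probe set, 1568850_at, ran the other way with 72.9 against 156. CXCR1 and CXCR2, which bind the neutrophil attractants, CXCR5, which binds CXCL13, and CCR8 and ACKR1 were below the floor on both arrays.

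Of the enzymes and carriers that act on chemokines, those above the floor stayed within 2-fold, with 1 exception. All 8 genes of this list had a probe set, and 6 were above the floor on both arrays, with a median log2 ratio of -0.08. MMP9, a gelatinase that trims several CXC chemokines, had 186 with pDCs and 565 alone and was 3.05-fold lower. Its ratio rests on 1 probe set of the s_at class and did not pass 2-fold with a floor at the 70th percentile. MMP9 was the 1 gene of the 6 past 2-fold, against 4.51% lower and 3.16% higher over all genes. ADAM10, which sheds CXCL16 from the membrane, had 9927 and 6718 (1.48-fold). It also had 539 against 292 on 202604_x_at (1.85-fold) and 307 against 181 on 214895_s_at (1.69-fold). SRGN, the serglycin core protein that holds chemokines in granules, had 29850 and 32120, a log2 ratio of -0.11.

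Regulators of chemokine promoters, mostly transcription factors and with the NF-kB inhibitor gene NFKBIA among them, had mostly negative ratios within 2-fold. Of 15, 13 had a probe set and 11 were above the floor on both arrays. Of the 11, 10 had a negative ratio and 1 a positive one, with a median of -0.50 against -0.04 for all genes. The share of negative ratios over all genes was not counted, so the sign count describes this list only. Some of the 10 are small, such as IRF1 at -0.11 and CEBPB at -0.25. NFKBIA, at -0.76, is 1 of the 10. NFKB1, the p105 and p50 subunit of NF-kB, was 2.13-fold higher, with 2491 against 1172. STAT3 was 2.76-fold lower, with 1180 against 3256 on 208991_at, and had 282 against 615 on 208992_s_at. A further STAT3 probe set, 225289_at, went the other way with 781 against 653, so its probe sets disagree. NFKB2 is negative by its representative probe set, with 622 against 882, but had 350 against 165 on 207535_s_at, a log2 ratio of 1.09, so its probe sets disagree too. In each direction, 1 gene of the 11 passed 2-fold, against 3.16% higher and 4.51% lower over all genes.

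**Figure D3:**
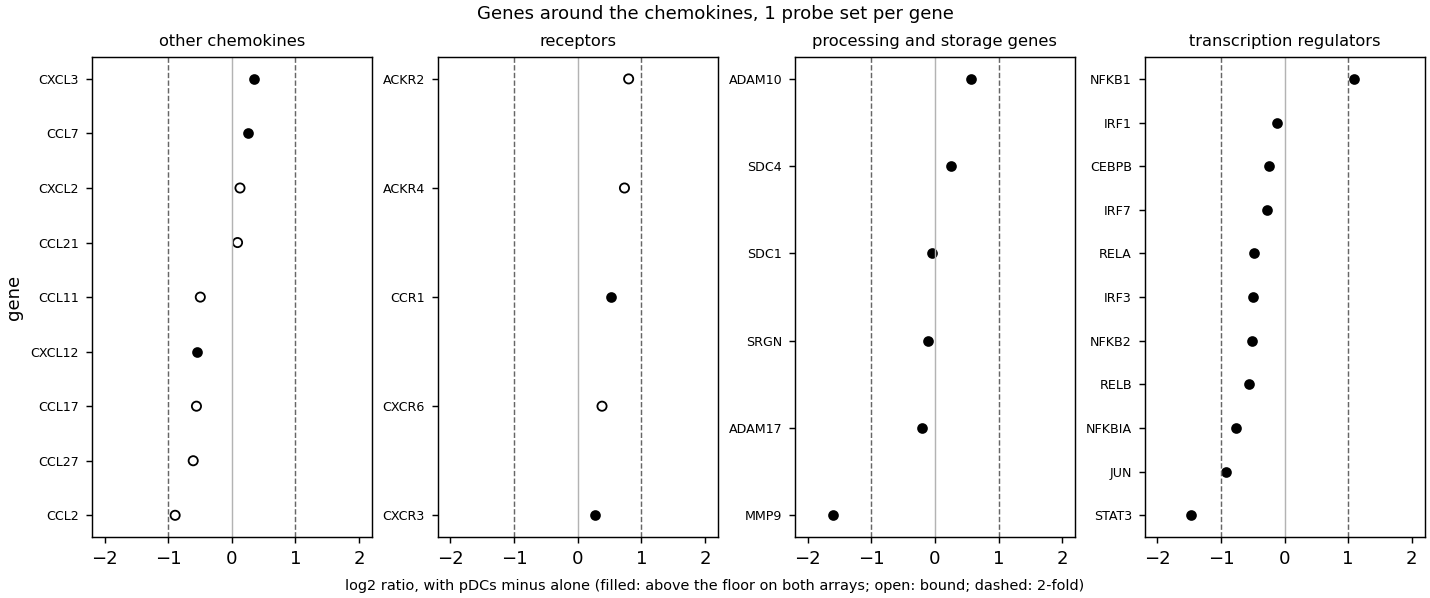
Log2 ratio (with pDCs minus alone) of genes above the floor on at least 1 array, by their probe set of highest mean signal, for other chemokines, receptors of the listed chemokines, processing and storage genes, and transcription regulators, 1 array per group. Filled points are measured on both arrays and open points are bounds. MMP9 (-1.61), STAT3 (-1.46) and NFKB1 (1.09) are the 3 genes beyond the dashed 2-fold lines.

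How far the chemokine ratios depend on the floor differs by gene. CCL4, CXCL10 and probe set 204655_at of CCL5 kept nearly the same log2 ratio under 3 other scalings and 3 other floors, at 1.10 to 1.14, -0.76 to -0.74 and 1.82 to 1.84. PPBP ranged from -4.97 without a floor to -1.75 with a floor at the 70th percentile, and CXCL5 from -3.95 to -1.37, past 2-fold under each of these scalings and floors. Both ratios are lost when probe sets of the s_at and x_at classes are left out. CCL18 on 209924_at fell short of 2-fold with that higher floor, at -0.69, and CXCL13 then had no ratio.

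**Figure D4:**
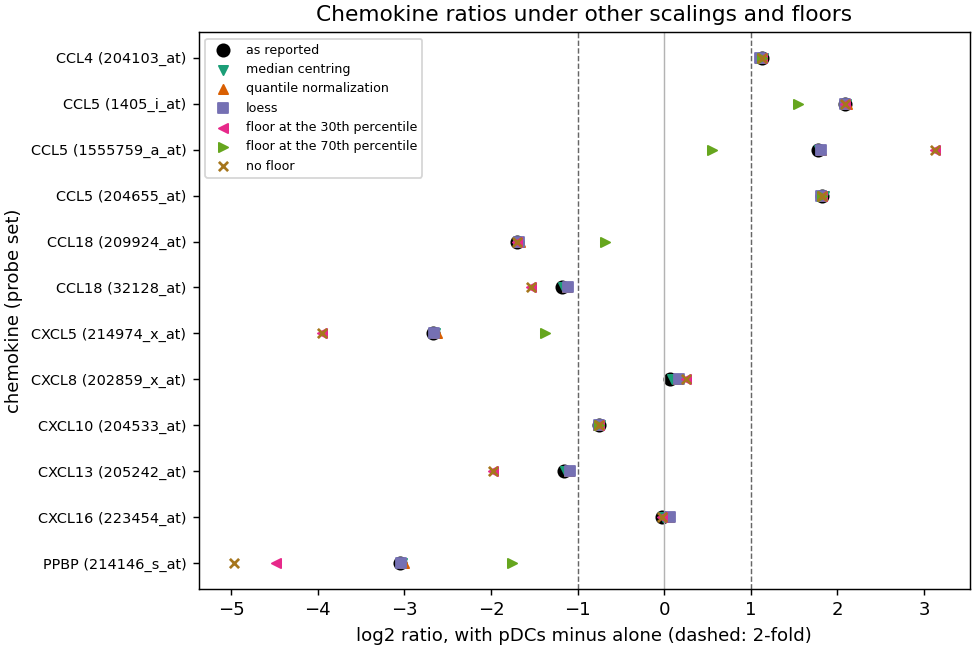
Log2 ratio (with pDCs minus alone) of the 12 chemokine probe sets with a ratio, as reported (black circles) and under 3 other scalings and 3 other floors; a probe set below the floor on both arrays has no point for that setting. CCL4, CXCL10 and CCL5 (204655_at) have points on top of each other, while PPBP and CXCL5 spread widely on the negative side.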

How the data were processed

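MM.1S RNA from culture with pDCs or alone was measured on 1 array per group, and the titles give the groups. The authors deposited linear intensity values, which the submitters' processing notes credit to MAS5. The sources used here name no MAS5 version, background step or detection call. Scaling arrays to a shared mean hides a change common to most transcripts. Of 54675 probe sets, 41091 had 1 symbol in the platform annotation, and 41037 of these matched RefSeq by gene identifier. Genes outside the list were represented by the probe set of highest mean log2 signal. The floor, the 2-fold threshold, the lists and the motifs were set with earlier results of these data known, as were the members, and the signal band of 250 to 2000 was set from the members' values. Named were all members, then up to 4 genes per other list past 2-fold, or the 2 of highest signal in a list without any. Other receptors, CCL2, ADAM10, SRGN, neighbouring genes and marker genes were named after their values were seen. Protein features planned for the members were not analysed here. Alternatives were 3 scalings, 3 floors, thresholds of 1.5-fold and 3-fold, leaving out probe sets that can bind several transcripts, and the mean over probe sets. The calculation was tested on simulated data with changes placed in bright probe sets only, which does not test how changes near the floor are recovered. Python 3.11.15, numpy 2.4.6, pandas 2.3.3, statsmodels 0.14.6 and matplotlib 3.10.9 were used.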

Additional observations from a re-analysis of the deposited data

How the results depend on the processing

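With 1 array per group, an array cannot be left out, and depth on an array is set by signal over background, so values near the floor are the least certain. No paired analysis was possible because each group has 1 array. Against 4 higher and 5 lower chemokine probe sets, there were 2 lower with a floor at the 70th percentile, 3 lower at 3-fold, and 2 higher and 3 lower without probe sets of the x_at, s_at, a_at and i_at classes. The 70th percentile floor leaves fewer probe sets with a ratio, and leaving out those classes removes the only ratios of PPBP and CXCL5. The median of the chemokine probe sets stayed negative, from -0.75 to -0.03. With that floor CCL5 on 1555759_a_at fell to 0.56 and CCL18 on 209924_at to -0.69. CXCL16 turned positive after quantile normalization (0.059) and loess (0.068). For other chemokines, 0 each way became 1 higher and 4 lower with a floor at the 30th percentile, 6 and 8 with none, and 2 lower at 1.5-fold. Receptors had 2 higher with the 30th percentile floor and at 1.5-fold, and 2 higher and 2 lower with none. Processing genes had 1 higher with the 30th percentile floor and with none, and 0 lower with the 70th percentile floor and without the probe set classes. Regulators had 2 lower with no floor, 3 lower at 1.5-fold, 0 each way at 3-fold and 0 lower with the mean over probe sets. The cause of these shifts was not tested. The other 84 counts and medians and 71 single ratios stayed on the same side of 2-fold or within 1.5 times.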
